A study of Mus musculus with 8 samples.

Results

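p53 binding was examined at 8 genes that act in, or on, the TGF-β and BMP pathways: *Acvr1*, *Smad3*, *Smad6*, *Nog*, *Tgif1*, *Ltbp2*, *Arid4b* and *Rab31*. They were taken from the authors' table of genes near regions with higher p53 binding after bleomycin (BLM), which holds 915 regions and 1425 genes. All 8 genes were found in it, with 9 assignments to 8 regions. The chromatin came from alveolar organoids, which are spheres grown in gel from alveolar type II cells of male wild-type mice on a C57BL/6 background, 8 to 12 weeks old. Organoids received the vehicle DMSO (CTRL, 2 libraries) or 100 μM BLM (2 libraries) for 24 h and were fixed with formaldehyde and a second crosslinker, DSG, before p53 was precipitated. The study states that 2 mice were used, but not which libraries share a mouse, and a peak list cannot show which cell types the organoids held.

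TGF-β and BMP are secreted ligands that bind pairs of receptor kinases at the cell surface. The receptors phosphorylate SMAD proteins, which enter the nucleus and regulate genes together with other factors. Antagonists outside the cell, inhibitory SMADs and nuclear corepressors hold the signal down, and matrix proteins store or release the ligand. In the lung, TGF-β is best known for driving fibroblasts towards myofibroblasts and for fibrosis. p53 is a transcription factor that accumulates after DNA damage, and BLM breaks DNA.

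The lists hold 50430 and 48743 peaks in CTRL replicates 1 and 2, and 39577 and 41451 in BLM replicates 1 and 2. No read counts were used, so the depth is unknown. Each peak has a fold enrichment, the authors' value for signal over the local background. It was turned into a percentile within its own list, where 100 is the highest peak, because fold enrichment was taken as comparable only within a list. Percentiles do not remove the difference in list length. At an equal rank, a peak has a higher percentile in the longer CTRL lists. With 2 libraries in each group, the smallest two-sided p of an exact permutation test is 0.333, and values are described without a test. The enriched regions were chosen by the authors on these same libraries, so higher values in BLM at those regions are a property of the choice and not a finding.

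*Nog*, which encodes noggin, a secreted protein that captures BMP ligands, was the gene with the closest region. That region (chr11:89194326-89194725, GRCm39) lay 1367 bp before the transcription start site (TSS) of the gene, and *Nog* was the one gene assigned to it. *Ltbp2*, which encodes a matrix protein of the latent TGF-β binding protein family, had a region 8913 bp downstream of its TSS, inside the gene. *Tgif1*, which encodes a homeodomain corepressor that binds SMAD proteins, had a near region at 16961 bp and a far region at 122769 bp, both downstream and past the 3′ end of the gene. The region of *Arid4b*, a subunit of the SIN3 histone deacetylase complex, lay 27834 bp into the gene. That of *Rab31*, a small GTPase of vesicle traffic, lay 52826 bp into the gene. The region of *Acvr1*, which encodes the BMP type I receptor ALK2, lay 81088 bp into it.

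*Smad3*, which carries TGF-β and activin signals, and *Smad6*, an inhibitory SMAD that acts mainly on BMP signalling, were assigned a single region between them (chr9:63803671-63804070). It was 138594 bp upstream of *Smad3* and 125471 bp downstream of the TSS of *Smad6*, which places it 56461 bp past the 3′ end of *Smad6*. *Smad6* was thus the nearer gene by distance between start sites and region. This was the one assignment of the 9 in which another gene was nearer, against 45.2% of all assignments in the table.

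Of the 8 regions, 7 were assigned to a second gene. *Acvr1* shared its region with *Acvr1c*, which encodes another type I receptor of the family, ALK7, at 127843 bp. Both *Tgif1* regions were shared with *Dlgap1*, a synaptic scaffold gene, at 409979 bp for the near region and 304171 bp for the far one. *Ltbp2* shared its region with *Isca2*, a gene of mitochondrial iron-sulfur cluster assembly, at 94331 bp. The second gene was *Hecw1*, a ubiquitin ligase gene, for *Arid4b* (431600 bp) and *Txndc2*, a thioredoxin-like gene of sperm, for *Rab31* (77722 bp). Outside the SMAD pair, the listed pathway gene was nearer in every shared region. The median distance from the TSS to the nearest region was 40330 bp for the 8 genes and 53801 bp for all genes of the table. *Nog* alone of the 8 had a region within 5 kb, and 4 genes had one within 50 kb (*Nog*, *Ltbp2*, *Tgif1* and *Arid4b*), against 48% of all genes in the table.

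**Figure D1:**
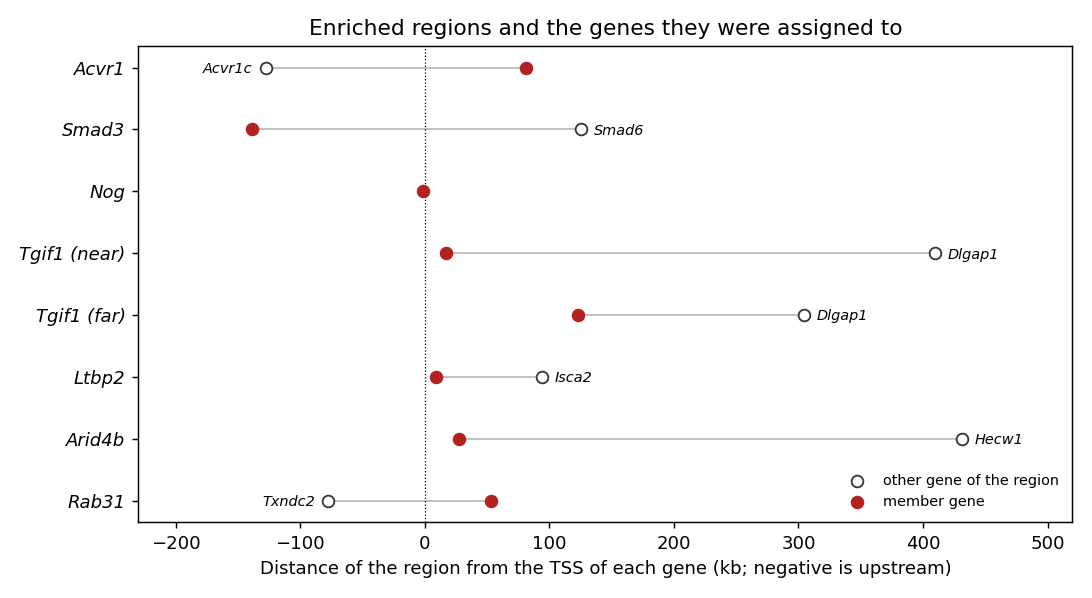
Signed distance (kb, negative is upstream) of each of the 8 enriched regions from the TSS of the gene named on the left (filled) and from that of the second gene assigned to the region (open); *Smad6* shares the row of *Smad3*. The *Nog* region lies 1367 bp upstream of the TSS and has no second gene, while the *Smad3* and *Smad6* region lies over 100 kb from both.

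The strength of the peaks over the 8 regions ranged widely. At the *Acvr1* region (chr2:58375551-58375950) a peak was called in all 4 libraries, with a fold enrichment of 13.8 and 16.6 in CTRL and 29.6 and 20.3 in BLM. It was already at percentile 86.1 and 92.4 in CTRL, and reached 99.5 (rank 188) and 98.5 (rank 634) in BLM. This was the highest peak over any of the 8 regions in each of the 4 libraries. The region shared by *Smad3* and *Smad6* was also called in all 4, at a fold enrichment of 6.01 and 7.29 in CTRL and 8.85 and 9.40 in BLM. Its percentiles of 33.3 and 49.8 in CTRL and 74.1 and 76.7 in BLM were those of middling peaks.

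At the *Nog* region (chr11:89194326-89194725) the fold enrichment was 4.91 in CTRL replicate 1, no peak was called in CTRL replicate 2, and the BLM libraries had 7.96 and 12.1. The CTRL peak was weak, at percentile 16.0, and the BLM peaks were at 66.9 and 88.9. It was compared with the 195 other assignments of an enriched region to a gene within 5 kb. The regions of *Slc12a7* (−1737 bp), *Notch1* (−3128 bp) and *Sema6a* (−993 bp) had the 4 percentiles most like these. Their Euclidean distances were 18.2, 18.6 and 19.8 percentile points. None of those 3 had a CTRL peak, which was counted as percentile 0.

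The near *Tgif1* region (chr17:71141569-71141968) had no peak in CTRL replicate 1, a fold enrichment of 5.83 in CTRL replicate 2, and 7.70 and 7.41 in BLM. Its percentiles were 30.8 in that CTRL library and 64.2 and 60.3 in BLM. The far *Tgif1* region (chr17:71035761-71036160) was called in every library, at 8.20 and 7.66 in CTRL and 11.6 and 10.4 in BLM. The far region was thus the stronger of the pair, at percentile 88.2 and 82.4 in BLM against 58.3 and 53.2 in CTRL.

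The *Arid4b* region (chr13:14266012-14266411) was called at 4.43 in CTRL replicate 1, not in CTRL replicate 2, and at 9.43 and 7.35 in BLM. The CTRL value stood at percentile 8.86, near the bottom of its list, against 77.8 and 59.6 in BLM. The *Ltbp2* region (chr12:84914157-84914556) was called in BLM alone, at 7.43 and 6.29, or percentile 60.8 and 44.9. Its BLM replicate 2 value was the lowest of any BLM peak over the 8 regions. The *Rab31* region (chr17:66026722-66027121) was likewise called in BLM alone, at 11.1 and 7.57, or percentile 86.1 and 61.5.

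In all, 2 of the 8 regions were called in both BLM libraries and neither CTRL library, against 56.8% of the 915 regions. That number was 4 with a −log10 q of at least 5, with lists of equal length, or without CTRL replicate 1. Another 3 were called in 1 CTRL library as well (12.5% of all regions), and 3 were called in all 4 libraries (30.6%), or 5 of 8 in the 3 libraries left without CTRL replicate 2. In each of those 3, both BLM percentiles lay above both CTRL percentiles, as did 86.1% of the enriched regions called in all 4. The median percentile of the peaks over the 8 regions was 76.0 and 69.1 in the BLM libraries, where all 8 were called. Over all enriched regions that were called, it was 88.5 and 86.1. In CTRL the medians were 33.3 (5 regions called) and 51.5 (4 called), against 56.6 and 57.8 over all. Since a peak just under the calling threshold is absent from a list, a region called in BLM alone cannot be read as unbound in CTRL.

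**Figure D2:**
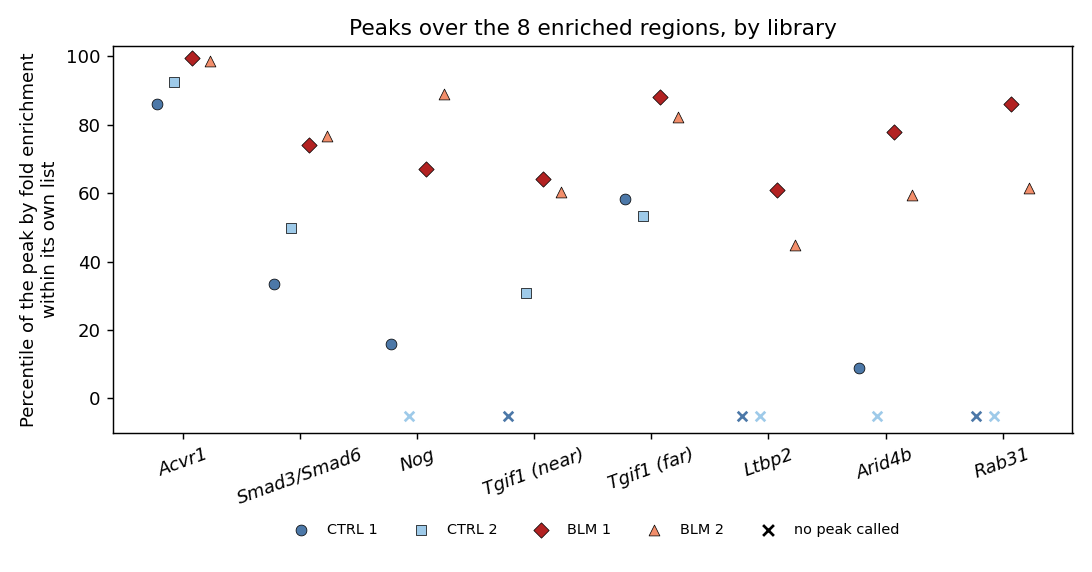
Percentile of the peak over each enriched region by fold enrichment within its own list (vertical axis), for CTRL replicates 1 and 2 and BLM replicates 1 and 2; crosses below 0 mark libraries with no peak. *Acvr1* is high in all 4 libraries, and *Ltbp2* and *Rab31* have no CTRL peak.

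The positions of the start sites on GRCm39 were read from each region's middle and its signed distance, which counts along the strand of the gene. They were at chr2:58456838 for *Acvr1*, chr9:63665276 for *Smad3*, chr9:63929341 for *Smad6*, chr11:89193158 for *Nog*, chr17:71158729 for *Tgif1*, chr12:84923269 for *Ltbp2*, chr13:14238377 for *Arid4b* and chr17:66079747 for *Rab31*. *Arid4b* lies on the plus strand and the others on the minus strand, which for *Nog* was inferred. Both *Tgif1* regions gave the same position. The gap between the *Smad3* and *Smad6* positions was 264065 bp, against 264091 bp between the 5′ ends of their RefSeq gene spans on GRCm38.p6.

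p53 peaks lay over most of these start sites in CTRL as well as BLM organoids. A peak within 500 bp of the TSS was called in all 4 libraries for 6 of the 8 genes, against 54.1% of the 1074 genes of the table whose TSS could be placed. *Nog* had no such peak in any library, and *Rab31* had 1 in CTRL replicate 2 alone, at a fold enrichment of 5.46 (percentile 22.9). *Nog* thus had an enriched region close to a start site that was itself uncalled. None of the start site peaks overlaps an enriched region, so their values were not used in choosing the genes.

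The *Smad3* start site carried one of the higher peaks of each list, with a fold enrichment of 20.4 and 16.9 in CTRL and 17.7 and 19.5 in BLM. Its percentiles were 96.7 and 92.9 in CTRL and 97.6 and 98.2 in BLM, so the fold enrichments overlapped between the groups while the BLM percentiles lay above. At *Smad6* the fold enrichment was 17.2 and 10.2 in CTRL and 11.1 and 8.0 in BLM. Its percentiles of 93.1 and 72.4 in CTRL and 86.5 and 66.0 in BLM overlapped, and replicates of the same group were as far apart as the groups. At *Acvr1* the fold enrichment was 9.69 and 8.99 in CTRL and 9.28 and 8.54 in BLM, which overlapped, and the percentiles were 68.9 and 64.0 in CTRL and 77.4 and 71.0 in BLM. The value of BLM replicate 2 belongs to a separate peak from −126 to 252 bp. At the *Acvr1* peak with summits from −519 to −491 bp that all 4 libraries shared, that library was at percentile 52.3, so the percentiles overlapped there too. At *Arid4b* the percentiles of 79.2 and 87.0 in CTRL and 88.9 and 81.7 in BLM overlapped.

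*Ltbp2* and *Tgif1* differed most. The *Ltbp2* peak, whose nearer end lay between −375 and −268 bp of the start site, had a fold enrichment of 8.51 and 5.53 in CTRL and 10.6 and 8.0 in BLM. That is percentile 60.3 and 25.6 against 84.1 and 66.0, higher in both BLM libraries but with a wide spread within CTRL. At *Tgif1* the order was the opposite, with 20.2 and 19.3 in CTRL and 6.96 and 11.3 in BLM. The percentiles were 96.6 and 95.9 in CTRL and 54.6 and 86.2 in BLM, the single start site of the 6 at which both BLM values lay below both CTRL values (23.8% of such start sites in the table). *Acvr1*, by the highest of its peaks, *Smad3* and *Ltbp2* had the reverse order (21.2%). With 6 start sites, nothing is read from how many fell each way.

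**Figure D3:**
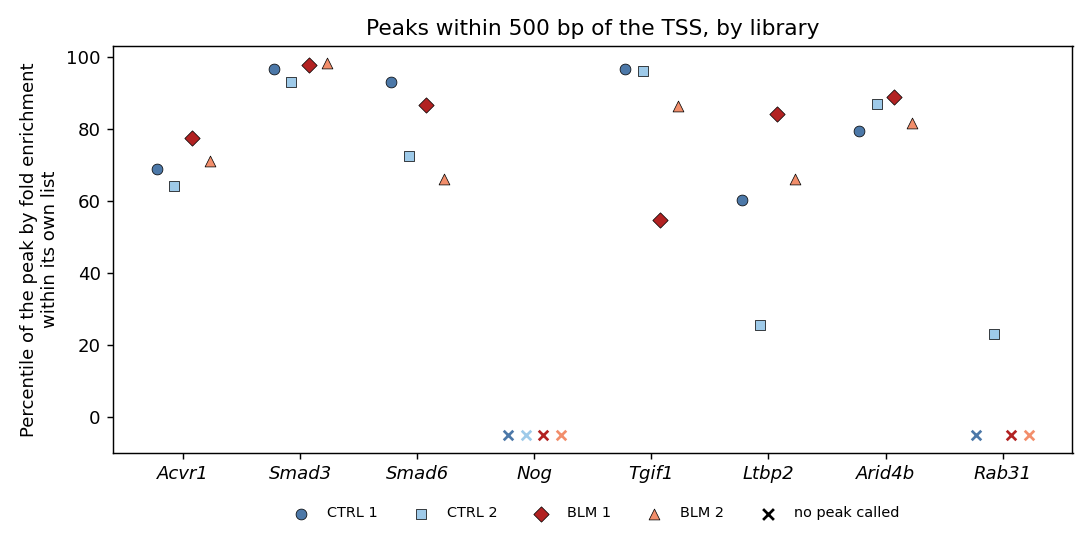
Percentile by fold enrichment of the highest peak within 500 bp of each TSS (vertical axis), by library; crosses below 0 mark libraries with no peak. *Tgif1* lies above 95 in CTRL and at 54.6 and 86.2 in BLM, *Ltbp2* lies higher in BLM, and *Nog* has no peak.

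The *Tgif1* promoter showed the most complex signal of the 8. Overlapping peaks of the 4 libraries joined there into a region of 4628 bp, from −2049 to 2578 bp of the TSS. It held 3 and 2 peaks in CTRL, 1 of them 3229 bp wide, and 4 and 6 peaks in BLM. These covered 4116 and 4152 bp in CTRL and 3479 and 3754 bp in BLM. The highest summit was at 632 and 658 bp in CTRL, at −1414 bp in BLM replicate 1, with a fold enrichment of 6.96, and at 1868 bp in BLM replicate 2, with 13.6. The BLM summits thus lay on opposite sides of the TSS read from the regions. RefSeq lists 5 *Tgif1* starts spread over 6755 bp on GRCm38.p6, and which of them each summit belongs to was not tested. Taken over this whole region, the percentiles were 96.6 and 95.9 in CTRL and 54.6 and 92.4 in BLM. The part of peak width and splitting in this order was not tested.

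The promoter sequences of 3 of these genes are shown for the bases just before the start site. The highest *Tgif1* peaks within 500 bp in CTRL replicate 2 and BLM replicate 2 lay wholly downstream of these bases. Each of those libraries also had a lower peak over the bases. It ran from −2041 to 196 bp in CTRL replicate 2, at percentile 81.6. In BLM replicate 2 it ran from −197 to 135 bp, at percentile 29.8. The sequences are from RefSeq on GRCm38.p6, on the minus strand and written 5′ to 3′ up to the start site. *Smad6* is shown because it holds the 8-base SMAD palindrome GTCTAGAC, *Tgif1* because its start site matched the position read from its regions and it holds 2 SMAD boxes, and *Smad3* as its paralog with neither. Capitals mark the palindrome in *Smad6*, whose sequence runs 4 bases past the start, and the SMAD boxes (CAGAC, or GTCTG on the other strand) in *Tgif1*.
Smad3 chr9:63757995-63758244: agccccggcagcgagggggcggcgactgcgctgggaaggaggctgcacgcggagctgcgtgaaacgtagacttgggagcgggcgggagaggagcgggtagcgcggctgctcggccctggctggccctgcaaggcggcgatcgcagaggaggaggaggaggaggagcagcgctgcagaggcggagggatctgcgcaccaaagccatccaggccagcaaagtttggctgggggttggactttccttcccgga
Smad6 chr9:64022056-64022309: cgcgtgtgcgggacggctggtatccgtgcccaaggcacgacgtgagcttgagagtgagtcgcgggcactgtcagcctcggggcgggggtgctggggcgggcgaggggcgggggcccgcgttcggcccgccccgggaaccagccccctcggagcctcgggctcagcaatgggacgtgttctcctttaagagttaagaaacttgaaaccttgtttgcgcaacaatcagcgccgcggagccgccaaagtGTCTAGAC
Tgif1 chr17:70851735-70851984: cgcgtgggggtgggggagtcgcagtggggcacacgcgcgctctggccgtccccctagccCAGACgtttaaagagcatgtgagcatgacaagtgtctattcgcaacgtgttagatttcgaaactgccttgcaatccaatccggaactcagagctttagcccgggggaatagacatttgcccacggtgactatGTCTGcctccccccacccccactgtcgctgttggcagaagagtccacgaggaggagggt

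All 3 were richer in G and C than most promoters, at 69.2% for *Smad3*, 66.8% for *Smad6* and 58.8% for *Tgif1* of the 250 bases before the start, against a median of 52.4% over 32851 promoters. They held 22, 27 and 16 CpG dinucleotides, against a median of 6. RefSeq promoters (250 bases before to 50 after a start) matched 7 of the 8 genes, 11 promoters in all with 5 for *Tgif1*. The p53 half-site was found in none of the 11, on either strand, against 8.36% of all promoters, and the full p53 response element in none, against 0.0731%. The SMAD palindrome was in the *Smad6* promoter alone of the 11, from 4 bases before the start, and in 0.213% of all promoters. SMAD boxes, which do not overlap the palindrome, were in 5 of the 11, from *Tgif1*, *Ltbp2* and *Arid4b*, against 49.6% of all. The 8 enriched regions themselves were not searched, since a GRCm39 genome was not used here.

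Around the start sites, the number of peaks was similar in CTRL and BLM. Within 50 kb on either side of the 8 start sites, 56 and 51 peaks were called in CTRL and 52 and 57 in BLM. The mean of the CTRL libraries was 53.5 ± 3.54 (SD, n = 2) and that of the BLM libraries 54.5 ± 3.54 (SD, n = 2). BLM was thus 1.87% above CTRL, a difference smaller than the spread between replicates. The same difference was −18.3% over all peaks of the lists and −7.90% over the windows of all 1074 placed genes. With 39577 peaks taken from each list it was 24.7% in the 8 windows, and with peaks of a −log10 q of at least 5 it was −8.70%. It was −2.42% in windows of 100 kb, −2.68% without CTRL replicate 2 and −2.80% without BLM replicate 2, so no direction is read from it. Without the peaks over enriched regions, the 8 windows held 54 and 50 in CTRL and 48 and 53 in BLM. The bases covered by peaks were fewer in BLM, at 20126 and 20046 against 25835 and 23148 in CTRL, or −18.0%, a difference larger than the spread. The median peak of the whole list was narrower in BLM too, at 281 and 279 bp, than in CTRL, at 330 and 322 bp. Covered bases were not set beside those of the whole lists, so nothing particular to the 8 windows is read from them.

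The windows differed more between genes than between conditions. *Smad3* had the most peaks, 16 and 12 in CTRL and 15 and 14 in BLM. *Nog* had 2 and 1 in CTRL and 2 and 2 in BLM, and *Rab31* 2 and 3 in CTRL and 1 and 2 in BLM. The median window of the table held 4 peaks in each library. *Smad3* was thus peak-rich, while *Nog* and *Rab31* were peak-poor. *Acvr1* had 5 and 5 in CTRL and 4 and 5 in BLM, and *Arid4b* 9 and 8 in CTRL and 8 and 9 in BLM.

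*Smad6* was the window with fewer peaks in both BLM libraries (8 and 7) than in both CTRL libraries (10 and 11), a pattern of 18.6% of the placed genes. *Tgif1* (10 and 9 in CTRL, 11 and 15 in BLM) and *Ltbp2* (2 and 2 in CTRL, 3 and 3 in BLM) were higher in both, a pattern of 10.6%. The additional *Ltbp2* peak was the one over its enriched region. In the *Tgif1* window the bases covered by peaks overlapped between the groups, at 6549 and 5870 in CTRL and 6240 and 6345 in BLM. Part of the *Tgif1* difference in number lay in its promoter, which held 3 and 2 peaks in CTRL and 4 and 6 in BLM. A broad peak of 2115 bp remained there in BLM replicate 1.

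**Figure D4:**
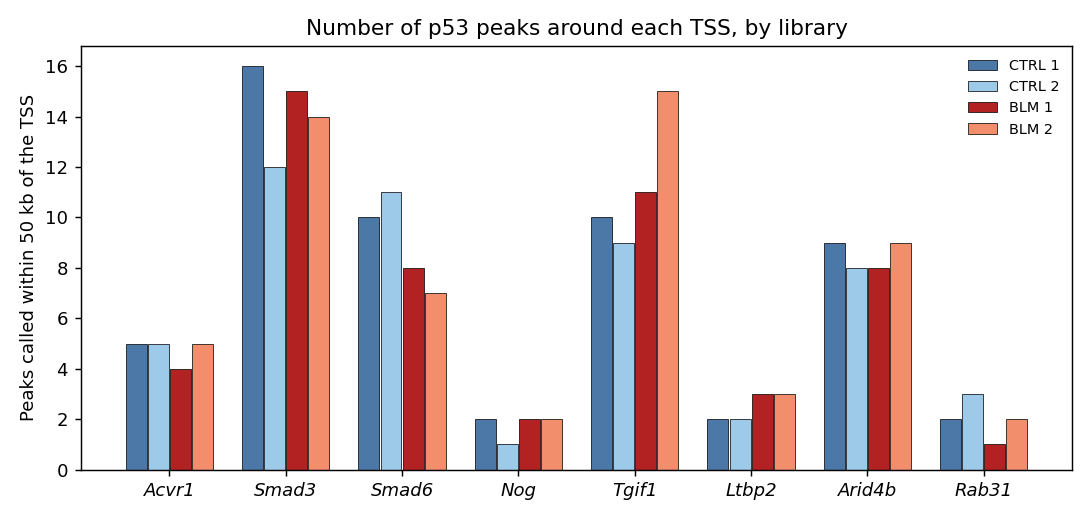
Number of peaks called within 50 kb of the TSS of each gene (vertical axis) in CTRL replicates 1 and 2 and BLM replicates 1 and 2. *Smad3* has 12 to 16 peaks in every library, and *Nog*, *Ltbp2* and *Rab31* have 3 or fewer.

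Joining peaks that overlapped between libraries gave 73 regions in these windows. Of the 73, 29 were called in all 4 libraries (39.7%, against 41.6% of all joined regions), 2 in both BLM and neither CTRL library (2.74%, against 2.03% of all), and 3 in the CTRL pair alone (8.4% of all). The 2 seen in BLM alone were the *Ltbp2* enriched region and a weak region 3419 bp downstream of the *Tgif1* TSS, at percentile 10.9 and 15.7. The 3 seen in CTRL alone were at 18547 and −28702 bp of *Smad6*, both at percentile 22.5 or lower, and at 2788 bp of *Tgif1*, at percentile 57.5 and 31.0.

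Of the 29 regions called in all 4 libraries, 8 had both BLM percentiles below both CTRL percentiles, against 30.5% of such regions in the whole data, and 4 had them above, against 11.8%. *Smad3* held 4 of these, but its window also held the most of the 29 regions, with 8. Its strongest peak in CTRL, 5220 bp downstream of the TSS, was at percentile 98.6 and 99.5 in CTRL and 87.5 and 89.0 in BLM. Another of them, joined from 742 to 1579 bp, was at 83.1 and 72.7 in CTRL and 4.11 and 41.0 in BLM. Its peak in BLM replicate 1 ran from 742 to 873 bp. That peak did not overlap the one of BLM replicate 2, from 1033 to 1359 bp. *Smad3* thus kept its start site peak high in every library, while the peak 5220 bp downstream ranked lower in BLM. A similar order was found upstream of *Acvr1*, at −22960 bp, where the percentiles were 87.6 and 86.9 in CTRL and 60.7 and 27.0 in BLM.

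The 4 regions with the opposite order were the start sites of *Acvr1*, *Smad3* and *Ltbp2*, where that of *Acvr1* rested on taking the highest of its peaks, and a site 14674 bp downstream of the *Tgif1* TSS. The latter was at percentile 21.0 and 38.8 in CTRL and 86.9 and 61.7 in BLM. It is not on the list of enriched regions, although it ranked higher in both BLM libraries than the near *Tgif1* region at 16961 bp that is. At *Tgif1* this site thus ranked higher in BLM while the promoter ranked lower. At *Arid4b* a peak at 25049 bp, just short of the enriched region, was strong in every library, at 94.3 and 90.1 in CTRL and 86.2 and 95.4 in BLM. Beyond the enriched region, the nearest peak called in all 4 libraries, at 30612 bp, was at 73.3 and 80.4 in CTRL and 7.41 and 52.3 in BLM.

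**Figure D5:**
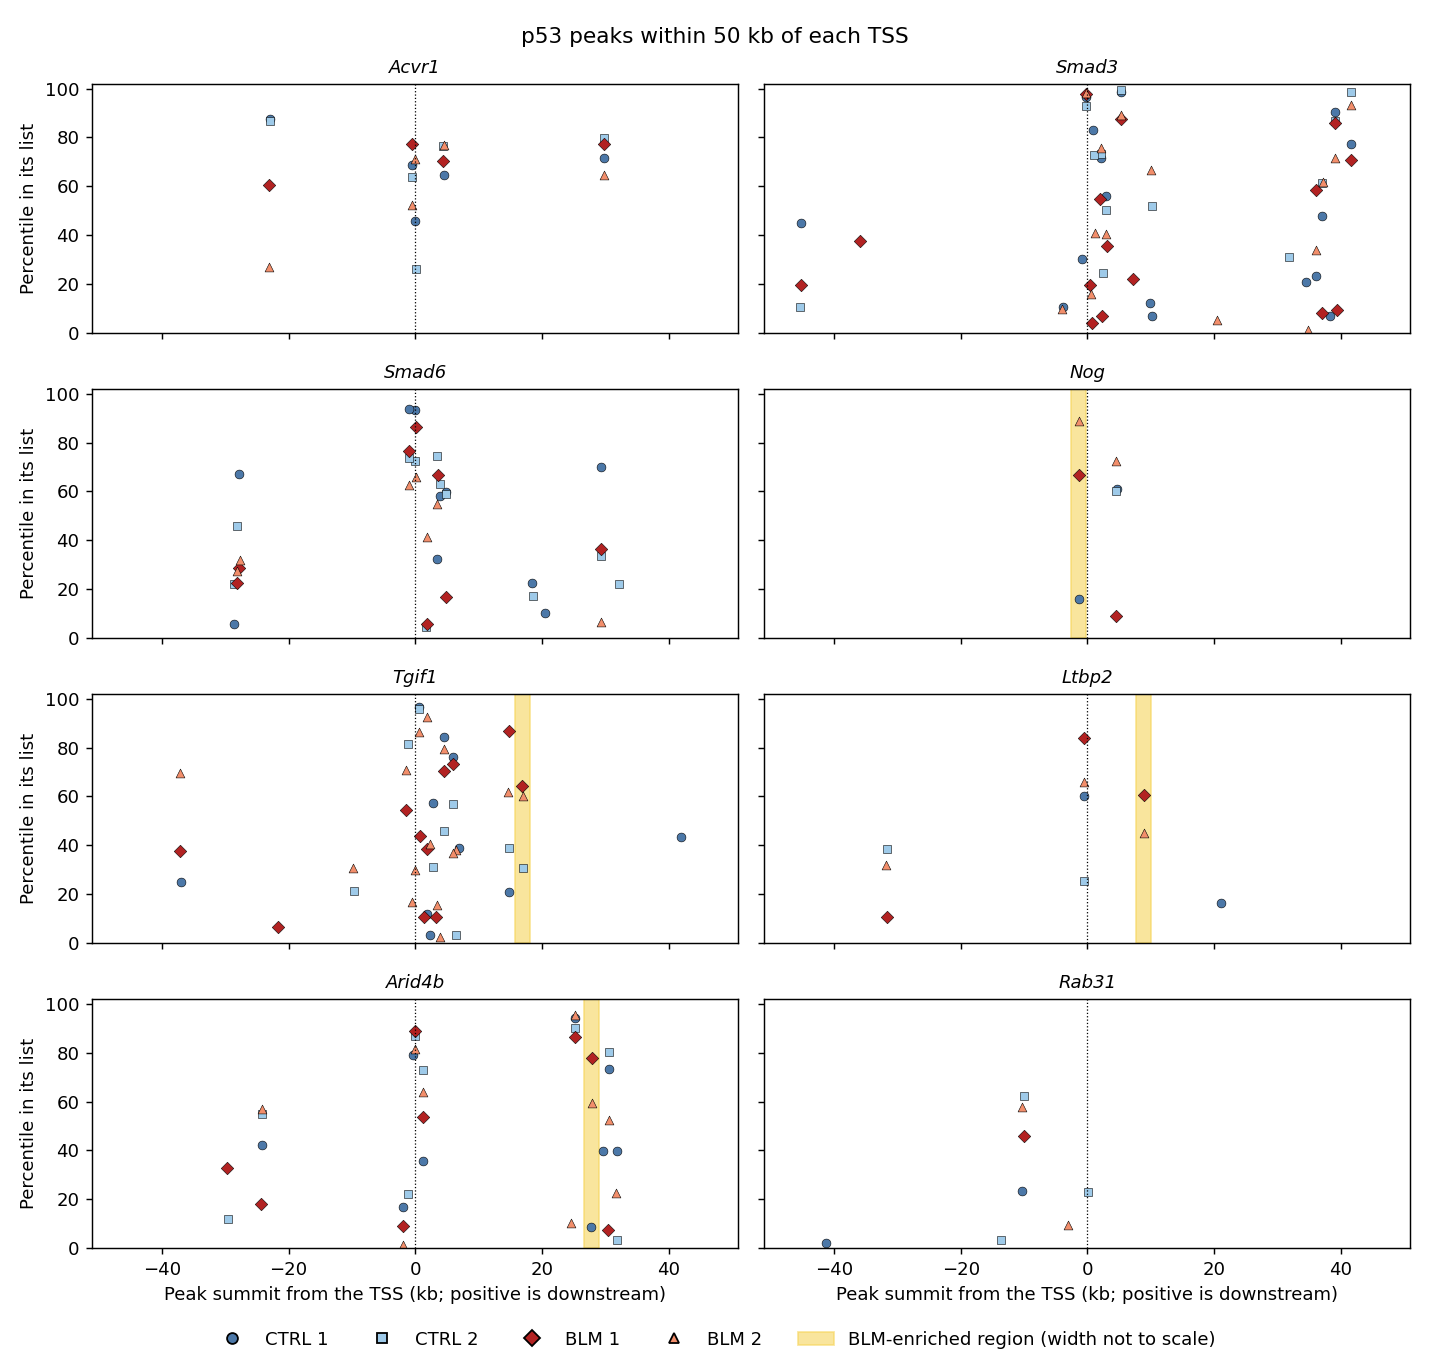
Peaks within 50 kb of each TSS, with the distance of the summit from the TSS in kb (horizontal, positive is downstream) and the percentile within the list of its library (vertical); yellow bands mark enriched regions and are not to scale. *Smad3* and *Tgif1* have many peaks near the TSS, and only *Nog*, *Tgif1*, *Ltbp2* and *Arid4b* have an enriched region in the window.

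The wider pathway was read from a list of 86 TGF-β and BMP genes grouped by role, which includes the 8 genes. Of the 86, 22 had an assigned enriched region (25.6%), against 6.28% of 21900 protein-coding genes. Leaving out the 8 genes, which were chosen for being in the table, 14 of 78 remained (17.9%). The whole list was drawn up with earlier results of these data known, so neither share can be read as a test against 6.28%. Of the 22 genes, 13 had a region within 100 kb, 8 within 50 kb, and *Nog* and *Gdf15* within 5 kb. Over all genes of the table, 48% had one within 50 kb and 12.98% within 5 kb. The share of genes that lie next to long intergenic stretches, where a distant region is more readily assigned, was not matched between the list and the background.

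Among ligands, 4 of 17 were in the table (*Bmp6*, *Inhba*, *Inhbb* and *Gdf15*). *Gdf15*, a distant member of the family that is induced by stress, had a region 204 bp from its TSS with a fold enrichment of 7.23 and 5.47 in CTRL and 13.5 and 16.5 in BLM. It also had one 17513 bp upstream, which was nearer to *Pgpep1* at 10130 bp. That region had 25.5 and 16.3 in CTRL and 93.6 and 45.1 in BLM, where both values were above those of any of the 8 genes. Fold enrichments were taken as comparable only within a list, and its percentiles were already 98.9 and 91.9 in CTRL. In BLM they were 99.98 and 99.8. *Inhba*, which encodes a subunit of activin, had a region 475600 bp from its TSS at 5.69 and 6.66 in CTRL and 27.9 and 21.6 in BLM. Its percentiles were 28.2 and 42.1 in CTRL and 99.5 and 98.8 in BLM. Among receptors, 2 of 13 were in the table, *Acvr1* and *Acvr1c*, through their shared region.

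Of 8 SMAD genes, *Smad2*, *Smad3* and *Smad6* were in the table. *Smad2*, which carries TGF-β signals together with *Smad3*, had a region 113424 bp upstream at 3.60 in CTRL replicate 2, uncalled in CTRL replicate 1, and at 12.1 and 12.2 in BLM. The secreted inhibitors in it included *Nog* and *Fst*. *Fst*, which encodes the activin antagonist follistatin, had a region 11548 bp downstream at 5.51 and 11.1 in CTRL and 36.1 and 37.9 in BLM. The percentiles were 25.2 and 76.7 in CTRL and 99.7 and 99.7 in BLM. The fold enrichment at *Nog* was lower than that at *Fst* in each of the 3 libraries with a *Nog* peak.

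Of 11 matrix and activation genes, *Ltbp2* and *Itgb6* were in the table. *Itgb6* encodes the β6 integrin subunit that helps to release latent TGF-β, and its region 153523 bp upstream, nearer to *Rbms1* at 54204 bp, was called in BLM alone at 11.4 and 9.68. Of 18 intracellular regulators, 7 were in it: *Tgif1*, *Arid4b*, *Rab31*, *Map3k7*, *Sptbn1*, *Ctnnb1* and *Xiap*. *Map3k7*, which encodes the kinase TAK1, had a region 22408 bp upstream that was called in BLM alone at 20.9 and 29.6, higher than *Tgif1*, *Arid4b* or *Rab31*. Of 9 target genes, *Cdkn1c* alone was in it. *Sptbn1*, which encodes a spectrin that binds SMAD proteins, had a region 51787 bp upstream that was called in BLM alone at 35.0 and 37.7. *Ctnnb1*, which encodes β-catenin, had one 14148 bp upstream at 31.4 and 24.1 in CTRL and 47.5 and 65.8 in BLM. Its percentiles hardly differed, at 99.7 and 98.6 in CTRL and 99.8 and 99.9 in BLM. The peaks over the regions assigned to *Gdf15* (at 17513 bp), *Fst*, *Sptbn1* and *Ctnnb1* were the higher ones. Their fold enrichments in both BLM libraries were above those of any peak over the regions of the 8 genes.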

How the data were processed

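p53 ChIP-seq peaks were called by the authors in each library. For every peak the authors deposited a score, a fold enrichment over background, and the −log10 of its p and q. The lowest −log10 q was 2.00 to 2.03. The submitters' notes name Trim Galore 0.6.7, Bowtie2 2.5.1, MACS3, DiffBind 3.8.4 and edgeR 3.40.2. The test that chose the BLM-enriched regions is not given in the sources used here. The authors assigned regions to genes with GREAT 4.0.4, which extends each gene's domain by up to 1000000 bp. Its distances were computed on mm10, whereas the peaks are on GRCm39, and no position was converted. The 4 input libraries were not analysed here.

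Python 3.11.15, numpy 2.4.6 and pandas 2.3.3 were used for percentiles, overlaps (at least 1 bp), joined regions and windows. Queries were tested on simulated lists. GREAT distances count along the gene's strand. Strands came from the RefSeq promoter table. That of *Nog* was the one whose position fitted the shift of its 5 nearest genes between builds, a rule that recovered 96.1% of 1075 known strands but not those of *Acvr1* and *Arid4b*. The remaining difference was 227 bp for *Nog*, against 17898 and 44624 bp for these genes. Genes named are the 8 members, genes sharing their regions, listed pathway genes in the table, and the 3 regions most like that of *Nog*. Other genes and positions were named after their values were seen. Members and lists were chosen with earlier results of these data known. The alternatives were a −log10 q of at least 5, equal list lengths, other overlaps, windows and ranks, and each library left out.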

Additional observations from a re-analysis of the deposited data

How the results depend on the processing

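Of 64 alternative values, 49 stayed within the spread between replicates or within 1.5 times the count reported, and 15 moved further. The number of regions with peaks in the BLM pair alone went from 2 to 4 at a −log10 q of at least 5 and to 4 with 39577 peaks from each library, and ranged from 2 to 4 with a library left out (4 without CTRL replicate 1). Regions called in all libraries ranged from 3 to 5 (5 without CTRL replicate 2). At a −log10 q of at least 5, the median percentiles became 51.2 in CTRL replicate 1, 71.0 in BLM replicate 1 and 62.3 in BLM replicate 2. The difference in window peaks became −8.70% at that threshold, 24.7% with equal lists, −18.0% in covered bases and −2.42% in 100 kb windows, and ranged from −2.80 to 6.86% with a library left out. Outside the enriched list, −2.88% became −16.5%, 16.7%, −20.9% and −6.29% under the same alternatives, with a range from −7.69 to 1.92%. The direction of the window difference was thus not stable. Pathway genes in the table fell from 22 to 13 within 100 kb and 8 within 50 kb. Without regard to strand, an alternative added after seeing the data, the window difference was −0.952%. The order of BLM and CTRL at each of the 6 start sites was the same within 1 kb and when ranked by −log10 q. The same order held at a −log10 q of at least 5 and with equal lists. All 4 alternatives were added after seeing the data. Each again took the highest peak near the start site, so none can show how the order depends on that choice. At the *Acvr1* peak that all 4 libraries shared, the percentiles overlapped. The start site count was 6 under every alternative run. The cause of these changes was not tested. No paired analysis was possible because the results come from no test, and the labels do not say which libraries share a mouse. Without read counts, differences below the calling threshold could not be seen.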
